A study of Mus musculus with 74 samples.

Results

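A mouse TGF-β array study followed S2WT, S3WT, S2KO and S3KO cells, and S2WT cells with the MEK inhibitor U0126, at 5 times. These 5 sets of arrays are called lines here. The genes described are the cytokine, chemokine, interferon and leukocyte genes. They were chosen by name alone: a probe belonged if its single gene symbol began with one of the family names for interleukins, chemokines and their receptors, tumour necrosis factor (TNF) ligands and receptors, interferons and interferon-inducible genes, IRF and STAT factors, Toll-like receptors, colony-stimulating factors, CD antigens or the mouse MHC (H2). This gave 117 of the 8976 probes on the array, standing for 96 genes, of which 18 were on 2 or more probes. The rule itself uses no measured value, but it was set with earlier results of these data known. A name is not a function, and some members only share a prefix: Irf2bp1, Irf2bp2 and Irf2bpl are named for partners of an interferon regulatory factor, or for likeness to them, and are not such factors, and Cd2ap and Cd2bp2 are intracellular adaptors, not leukocyte antigens.

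TGF-β binds a pair of receptor kinases that phosphorylate Smad2 and Smad3, which join Smad4 and act on genes in the nucleus. It is also a strong restraint on inflammation in immune cells. Cytokines of the interleukin and interferon families signal through JAK kinases and STAT factors, whereas TNF, interleukin-1 and Toll-like receptors signal largely through NF-kB. In cells that are not leukocytes, such as fibroblasts, some of these genes (Cd44, Il1r1, Ifngr1, Cxcl12, Stat3) are usually expressed, and others (Cd79a, Cd53, Il4) are not.

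The 74 arrays each compared 2 RNA samples of a single line, labelled without TGF-β in channel 1 and with TGF-β in channel 2. The lines are S2WT, S3WT, S2KO, S3KO and U0126, each at 0, 0.3, 1, 2 and 4 h with 3 arrays, except S3KO at 1 h with 2. At 0 h both channels were labelled without TGF-β, so these self-comparisons give the background of each probe. The labels leave S2 and S3 as abbreviations, and the published study of this design used mouse embryonic fibroblasts that lack Smad2 or Smad3 and matched wild-type cells.

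U0126 is an inhibitor of the kinase MEK, which acts upstream of ERK. The titles of its arrays set S2WT against U0126, whereas each channel's own label gives both S2WT and U0126, and the latter was followed. By these labels the U0126 line is S2WT cells with the drug, not a further cell line. The S3KO 0.3 h arrays carry labels without TGF-β in both channels, against the scheme of the other times, and in their channel fields the S2WT arrays of 4 h are given as 2 h. The labels give no tissue, TGF-β dose or drug dose, and do not say whether replicates were separate cultures, so p-values measure only the spread between these arrays, which may be technical. A ratio gives no level: the cell type could not be checked against its markers, and the knockouts could not be checked either. In such bulk samples a change in the number of cells of a type and a change in RNA per cell cannot be told apart.

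Values are log2 ratios, centred on the median of each array, and were read as TGF-β-treated over untreated. That direction is not stated, and was taken from a list of TGF-β-induced genes outside the families described here. Of its 20 tested probes, 8 were higher and 0 lower over all lines (Hbegf, Skil and Klf10 among them), and 17 were above 0. Of all 6531 probes tested in that comparison, 57 were higher and 13 lower, and 50.9% were above 0. The list was chosen with earlier results of these data known, so it is not an independent check of the direction. An array measured 7688 to 8713 probes. Over probes measured on every array, the S3KO 1 h replicate 2 correlated at -0.38 with the mean 0 h array of the other lines, the next lowest array at -0.16 and the highest at 0.65. Its direction is thus unsettled, and results that use it were also computed with its sign turned. The S3KO 0 h replicates 1 and 2 correlated at -0.16 and -0.10, apart from the 0 h arrays of the other lines, so the pooled background was also computed without S3KO. Replicate 3 stood at 0.58. Mean correlations of the 3 within their group were -0.01, 0.03 and -0.09, and they are the baseline of every S3KO response against own 0 h arrays. The U0126 1 h replicate 1 was also apart, at 0.06 with the other lines and 0.03 within its group.

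As a set, members were measured on fewer arrays and with more spread than all probes. A member was measured on a median of 69 arrays against 72 for all probes, and 21 of the 117 members (17.9%) had a value on all 74 arrays, against 25% of all probes. The median standard deviation (SD) between arrays of a group was 0.82 log2 units for members and 0.58 for all probes. It was under 0.5 for 28 members and over 1 for 41. The signal level behind each ratio is not known, and the few arrays in a group limit the precision further.

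The roles differed in this respect. The 5 STAT factors and the 10 IRF probes had median SDs of 0.50 and 0.57, and the 10 MHC probes, the 8 TNF receptor probes and the 7 interleukins had 1.21, 1.28 and 1.20. Ifngr1, a chain of the interferon-γ receptor, had the smallest spread of its role at 0.21 on 74 arrays, and Tnfrsf1b probe 7267, Irf2bpl and Ifitm3 had 0.31, 0.27 and 0.38. Of the 24 pairs of probes that name the same gene, the median correlation across arrays was 0.06, and 2 pairs were over 0.5. One was the pair for Tnfrsf1b (0.59 over 72 arrays) and the other a pair for Cd53 (0.58 over 56 arrays). These correlations are descriptions, since arrays share groups and backgrounds.

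**Figure D1:**
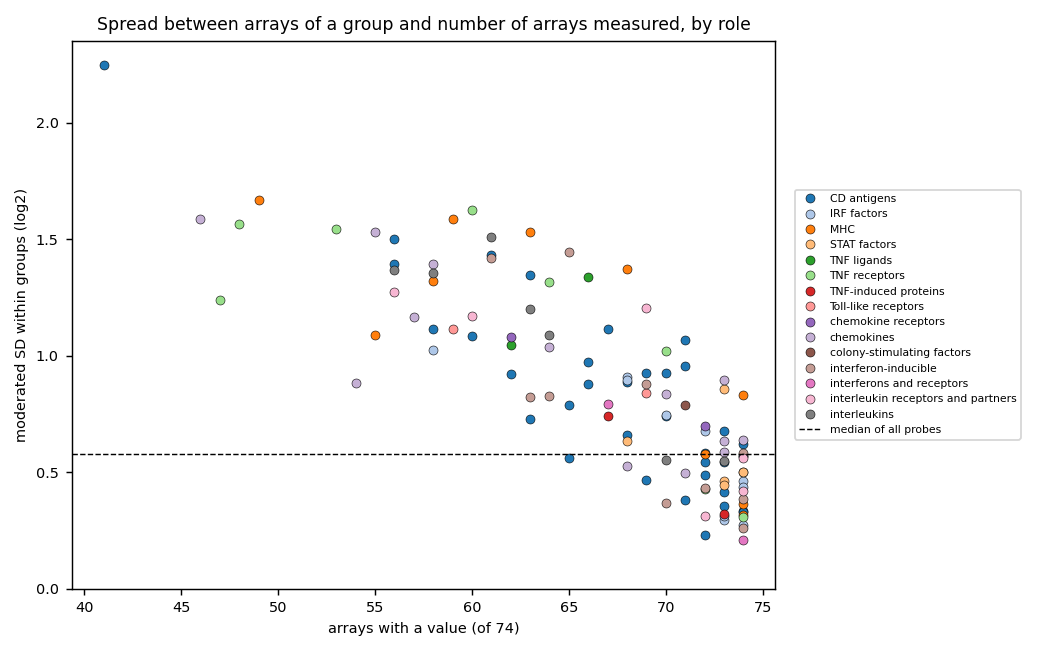
Each point is a member probe, coloured by role: the x axis is the number of arrays with a value, of 74, and the y axis the SD between arrays of a group after limma moderation (log2 units). The dashed line is the median of all probes, 0.58, and probes with fewer arrays lie higher on the plot.

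The late response of a line was its mean over 1, 2 and 4 h minus its 0 h mean, from 9 treated arrays (8 in S3KO) against 3. Probes were called at an adjusted p under 0.05 (limma's moderated test with Benjamini-Hochberg adjustment over all probes tested in a comparison). In S2WT, 0 of 108 tested members were called, where 0.192% of all 8331 tested probes were, and 5 members reached an unadjusted p under 0.05 (2 higher, 3 lower), where 7.8% of all probes did. In S3WT, 1 of 96 was called against 0.12% of all probes, the fall of Ifitm3, and 4 passed unadjusted (2 higher, 2 lower) against 5.47%. In S2KO, 2 of 90 were called against 0.515%, rises of Tnfrsf1b and Cd1d1, and 9 passed unadjusted (7 higher, 2 lower) against 8.22%. In S3KO, 0 of 80 were called against 1.53%, with 8 members at an unadjusted p under 0.05 (6 higher, 2 lower) where 10.8% of all probes reached it. In U0126, 0 of 102 were called against 0.0719%, with 8 at an unadjusted p under 0.05 (1 higher, 7 lower) where 6.35% did.

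Member medians of the late response lay between -0.10 (S2WT) and 0.02 (S3WT), and those of all probes between -0.03 and 0.02. Between 45.1% and 52.1% of tested members were above 0 in each line, where 45.7% to 52.4% of all tested probes were. Late arrays that lay all above or all below the own 0 h arrays were found for 1 of 63 fully measured members in S2WT (Tnfrsf1b probe 7267, above, where 2.33% of all probes did so), 1 of 64 in S3WT (Ifitm3, below, 1.75%) and 1 of 55 in S2KO (Tnfrsf1b probe 6976, above, 0.998%). In S3KO 1 of 57 did so (Cd99l2 probe 6164, below, 1.54%), and 0 of 62 in U0126 (2.19%). These shares are near those of all probes.

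**Figure D2:**
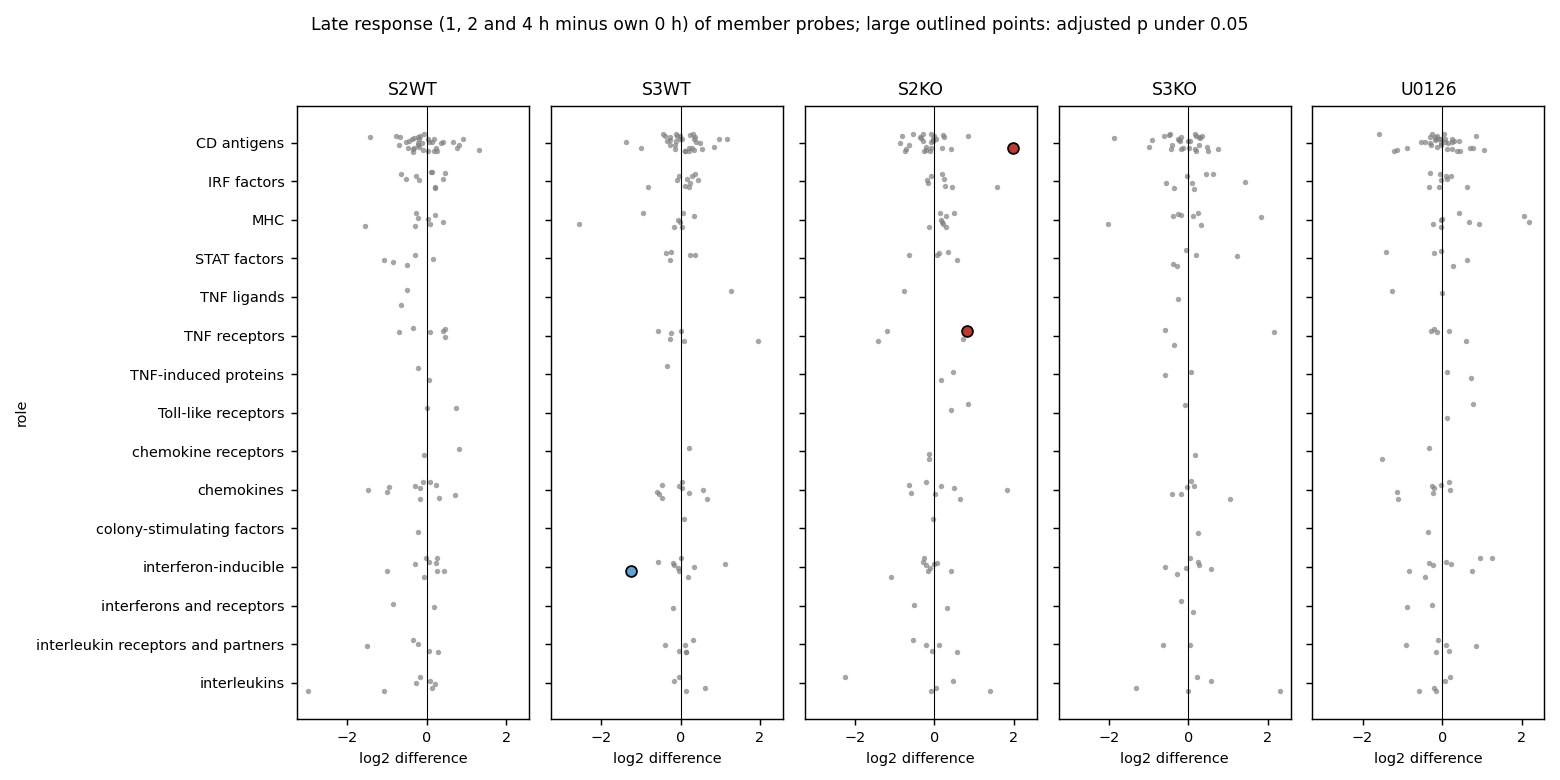
Each point is a member probe in 1 line: the x axis is its late response (mean of 1, 2 and 4 h minus own 0 h, log2 units) and rows are roles, with points spread within a row only for legibility. The large outlined points are the 3 called probes, Ifitm3 in S3WT at -1.24 and Cd1d1 and Tnfrsf1b in S2KO at 1.97 and 0.82; S2WT, S3KO and U0126 have none.

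Set against the 15 0 h arrays of all lines, which assumes a shared background and gives a smaller error, 1 of 85 members was called in S2WT (Tnfrsf1b, higher, against 1.27% of all probes), and 4 of 76 in S2KO (2.49%). None of 81 was called in S3WT (0.146%), of 69 in S3KO (0.0141%) or of 84 in U0126 (0.782%). At an unadjusted p under 0.05 the lines S2WT, S3WT, S2KO, S3KO and U0126 had 7, 6, 13, 3 and 9 members, where, in that order, 12.3%, 8.41%, 14.9%, 5.17% and 10.6% of all probes passed. The 4 in S2KO were Tnfrsf1b, Irf2bpl and Ccl6, which rose, and Il1r1, which fell. Over all lines together 0 of 58 members were called, against 1.07% of all probes, and 6 reached an unadjusted p under 0.05, where 10.5% did. These comparisons share 0 h arrays, so their calls are not independent of each other.

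Tnfrsf1b, the TNF receptor that binds both TNF and lymphotoxin and signals without a death domain, was the member with the smallest p over all lines. The 250 bases before its start site are shown because it is the member that rose in more than 1 line. They are from RefSeq on GRCm38.p6, chr4:145246871-145247120, minus strand, with capitals for a SMAD-type match (CAGAC, here read on the other strand), a match to the interferon-stimulated response element (also on the other strand) and a STAT match (TTCNNNGAA).
Tnfrsf1b: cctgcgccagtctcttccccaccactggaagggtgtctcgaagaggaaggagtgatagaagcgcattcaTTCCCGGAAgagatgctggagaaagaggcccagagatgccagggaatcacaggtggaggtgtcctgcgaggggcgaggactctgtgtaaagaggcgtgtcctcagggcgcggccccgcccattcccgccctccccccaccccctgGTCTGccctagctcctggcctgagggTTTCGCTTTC
The motifs searched were CAGAC for Smad factors, the AP-1 motif TGANTCA, the interferon-stimulated response element and TTCNNNGAA on both strands, and none overlap in this window. Of 32851 RefSeq windows of this length they occurred in 42.2%, 6.75%, 2.98% and 7.02%, and of the 100 windows of 78 member genes in 52%, 14%, 8% and 9%. A match is only a match of letters.

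On probe 7267 the S2WT ratios were 0.28, 0.29 and -0.12 at 0 h and 0.19, 0.47 and 0.34 at 0.3 h. The 1 h arrays read 0.67, 0.44 and 0.67, the 2 h arrays 0.69, 0.56 and 0.64, and the 4 h arrays 0.71, 0.51 and 0.51. Every array from 1 h on lay above every 0 h array, and the group means from 1 to 4 h lay between 0.57 and 0.63. The late response of S2WT was 0.57 ± 0.13 (SE) against the pooled 0 h arrays (limma, adjusted p = 0.0131) and 0.45 ± 0.21 against its own (adjusted p = 0.568).

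In S2KO the same probe read 0.36, 0.09 and -0.23 at 0 h and -0.12, 0.26 and 0.29 at 0.3 h. It then read 0.81, 0.93 and 0.23 at 1 h, 1.60, 1.22 and 1.39 at 2 h, and 0.85, 0.53 and 0.49 at 4 h. The 2 h arrays were the highest of any group, above all 1 h and 4 h arrays of the line. The late response was 0.82 ± 0.21 against own 0 h arrays (limma, adjusted p = 0.0471, with 9 of 9 arrays over the mean at 0 h) and 0.86 ± 0.13 against the pooled ones (adjusted p = 9.6e-06). The pooled calls held with each of 24 arrays left out in turn, at 0.47 to 0.63 in S2WT and 0.76 to 0.94 in S2KO. The call against own 0 h arrays held in 4 of 12 such fits, at 0.67 to 0.97, and was lost with replicate number as a block. With arrays scaled to a common spread, the call against own 0 h arrays in S2KO (0.69, adjusted p = 0.189) and the pooled call in S2WT (0.51, adjusted p = 0.0551) were lost, and without centring so were both (0.87, adjusted p = 0.119, and 0.39, adjusted p = 0.149).

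The second probe, 6976, followed the first in S2KO, with 0.38, 0.07 and 0.30 at 0 h, 1.46, 0.58 and 0.52 at 1 h, 1.36, 0.71 and 1.64 at 2 h, and 0.87, 0.66 and 0.98 at 4 h. All 9 late arrays lay above the 3 at 0 h. Its late response was 0.73 ± 0.29 in S2KO (limma, adjusted p = 0.405) and 0.45 ± 0.29 in S2WT (adjusted p = 0.797), close in size to those of probe 7267 but with a larger error. It was not tested against the pooled background, because S3KO had a single 0 h value on it.

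U0126 arrays of probe 7267 read 0.24, -1.16 and 0.47 at 0 h, -0.26, 0.58 and 0.35 at 1 h, 0.45, 0.73 and 0.67 at 2 h, and 0.63, 0.51 and 0.45 at 4 h. The 0 h replicate 2 stood far below all others of the line. The late response was 0.43 ± 0.13 against pooled 0 h arrays (limma, adjusted p = 0.109) and was not called. In S3WT the 9 late arrays ran from -0.58 to 0.36 and in S3KO the 8 late arrays from -0.41 to 0.16. They overlapped the 0 h arrays (-0.26 to -0.13 in S3WT, -0.07 to 0.59 in S3KO), and the pooled late responses were -0.20 ± 0.13 and -0.14 ± 0.14, neither called. Against own 0 h arrays S3WT stood at 0.01 ± 0.21, with 4 of 9 late arrays over the mean at 0 h, and S3KO at -0.36 ± 0.21 (limma, adjusted p = 0.596), with 0 of 8.

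Over all lines the late response of Tnfrsf1b was 0.30 ± 0.09 (limma, adjusted p = 0.106) and was not called. Without the S3KO line it was 0.47 ± 0.10 (adjusted p = 0.00585). Leaving out S3KO, whose own response was -0.36, raises the mean by construction. Whether the lines differed was tested as a difference of own late responses. S2KO minus S2WT was 0.37, with a 95% interval from -0.21 to 0.96, U0126 minus S2WT 0.16 (-0.42 to 0.74), and S3KO minus S3WT -0.37 (-0.96 to 0.22). Each interval held 0, and these arrays do not resolve differences of that size.

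**Figure D3:**
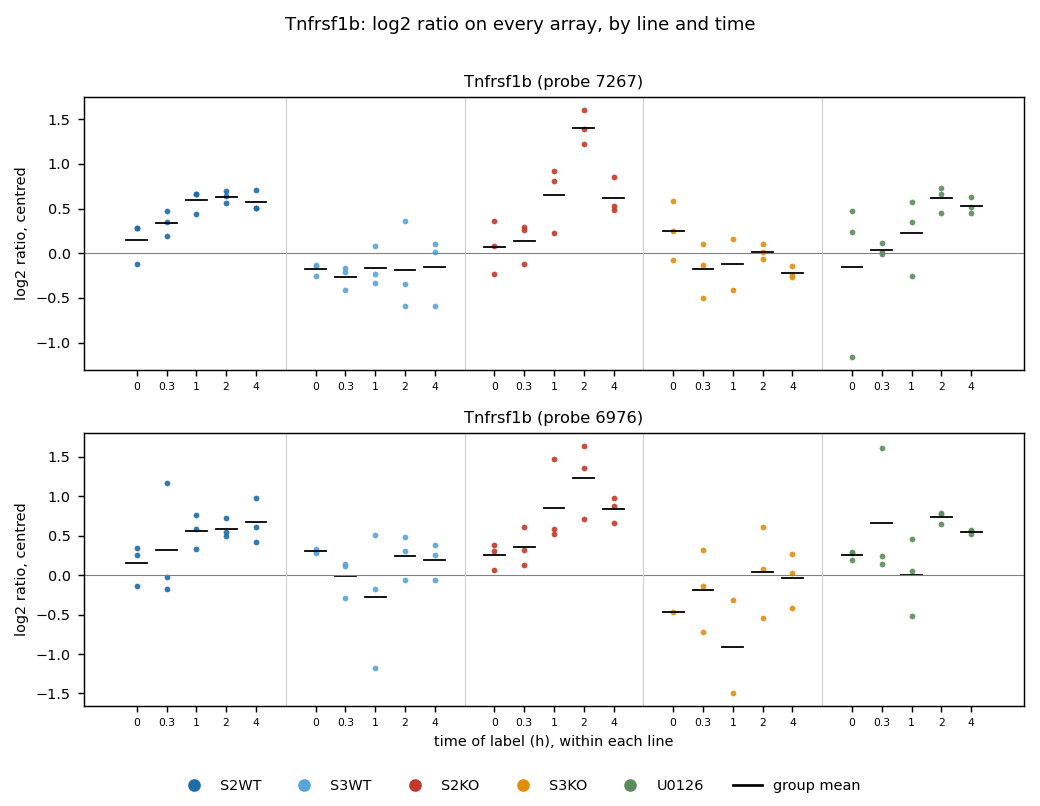
Centred log2 ratio of Tnfrsf1b on every array (points) with group means (bars), by line and by time of label in h; the upper panel is probe 7267 and the lower probe 6976. Both probes are highest in S2KO at 2 h, up to 1.60 and 1.64, and S2WT stays between 0.33 and 0.98 from 1 to 4 h on either probe.

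The other TNF family members gave no call. Tnfrsf9 (4-1BB, a costimulatory receptor of T cells) was the only other TNF receptor that could be tested over all lines. It stood at 0.44 ± 0.44 on a probe whose SD was 1.32. The TNF ligands Tnfsf8 and Tnfsf10 were not called in any line in which they could be tested. Tnfaip2, a TNF-induced cytoplasmic protein, was measured more tightly (SD 0.32) and stood at 0.02 ± 0.10 over all lines.

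Among the IRF probes, Irf2bpl rose in S2KO. It encodes a zinc-finger and RING protein named for its likeness to a corepressor of IRF2, and the 250 bases before its start are shown because its call in S2KO held with each array left out in turn (RefSeq, GRCm38.p6, chr12:86884815-86885064, minus strand, capitals for CAGAC).
Irf2bpl: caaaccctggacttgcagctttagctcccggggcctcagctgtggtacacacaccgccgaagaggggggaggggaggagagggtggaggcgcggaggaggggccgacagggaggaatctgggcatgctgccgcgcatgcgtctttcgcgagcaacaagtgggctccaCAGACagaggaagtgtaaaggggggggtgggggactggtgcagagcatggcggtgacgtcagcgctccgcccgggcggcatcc
It holds 1 CAGAC and none of the other motifs. S2KO arrays read 0.84, 0.46 and 0.41 at 0 h, 1.65, 1.52 and 0.86 at 1 h, 0.90, 0.64 and 0.88 at 2 h, and 0.75, 0.83 and 1.15 at 4 h. The 1 h replicates 1 and 2 were the highest, and the 0 h replicate 1 overlapped the 2 and 4 h arrays. The late response was 0.63 ± 0.12 against pooled 0 h arrays (limma, adjusted p = 0.000319), held with each of 24 arrays left out (0.58 to 0.71), and was 0.45 ± 0.18 against own 0 h arrays (adjusted p = 0.434, with 9 of 9 arrays over the mean at 0 h).

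The ratio of Irf2bpl was above 0 at 0 h as well, with group means of 0.38, 0.45, 0.57, 0.12 and 0.44 in S2WT, S3WT, S2KO, S3KO and U0126, as measured without TGF-β in either channel. S2WT reached 0.88 at 1 h and was back at 0.48 at 4 h. S3WT read 1.03, 1.20 and 1.09 at 2 h, above all of its other groups but for 1 array of 1.04 at 1 h, and -0.08, 0.34 and 0.30 at 4 h. The late responses of S2WT and S3WT against pooled 0 h arrays, 0.21 ± 0.12 and 0.28 ± 0.12, were not called, and S2KO minus S2WT was 0.23 with an interval from -0.29 to 0.75.

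Of the true IRF factors on the array (Irf1, Irf5, Irf8, Irf9), none was called. Irf1, an activator of interferon-stimulated and antigen-presentation genes, was on 2 probes that did not follow each other (correlation 0.11 over 68 arrays). The first stood at -0.03 ± 0.14 over all lines. Both probes were at 2.63 and 2.60 on the S2KO 2 h replicate 2, while the other arrays of that group read -0.61 and -0.81 on the first and -1.30 and -0.08 on the second. Irf2bp2 probe 6056 was 0.20 ± 0.13 over all lines.

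The interferon receptors gave no call in a late response. Ifngr1 was among the most precisely measured members, and its late response in S2KO exceeded the mean at 0 h on 9 of 9 arrays, with group means of 0.14, 0.35, 0.40, 0.63 and 0.34 from the first time to the last. Over all lines it stood at 0.04 ± 0.06. Ifnlr1, the specific chain of the interferon-λ receptor, fell at 0.3 h in S2KO: 0.12, -0.33 and -0.09 at 0 h against -3.92, -4.25 and -2.83 at 0.3 h. The groups did not overlap, and the response was -3.57 ± 0.65 (limma, adjusted p = 0.00703). It held in 5 of 6 fits with an array left out (lost without the 0.3 h replicate 1) and was lost with arrays scaled to a common spread (-3.04, adjusted p = 0.211). At 1 h S2KO read -0.97 and 0.32, and single low arrays occurred elsewhere, such as -4.48 in S2WT and -2.52 in S3WT at 1 h.

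Among interferon-inducible members, Ifitm3, which hinders virus entry at the endosomal membrane, fell in S3WT. Its arrays read 0.52, 2.36 and 0.42 at 0 h, 1.59, 0.02 and 0.72 at 0.3 h, 0.09, -0.56 and 0.41 at 1 h, 0.08, -1.26 and 0.03 at 2 h, and -0.07, -0.01 and 0.05 at 4 h. All late arrays lay below all 0 h arrays, and the late response was -1.24 ± 0.26 (limma, adjusted p = 0.0271). Without the 0 h replicate 2, at 2.36, it was -0.61 (adjusted p = 0.746). The late arrays alone averaged -0.14, and over all lines the late response was -0.36 ± 0.12 (adjusted p = 0.147).

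Ifitm3 was also below its 0 h mean on 9 of 9 late U0126 arrays, from 0.48, 0.47 and 0.33 at 0 h to 0.13, -0.12 and -0.08 at 4 h, a late response of -0.42 ± 0.26 (limma, adjusted p = 0.911). S2WT, S2KO and S3KO stood at -0.02, -0.16 and 0.04. Its relative Ifitm2 was -0.16 ± 0.13 over all lines. Ifi27, with an SD of 0.26, and the Ifi200-family members Ifi203, Ifi209 and Ifi214 were not called in any line.

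Interferon-stimulated genes outside these name families (19 of 32 listed genes on 26 probes, such as Oas2, Tap1 and Ube2l6) gave 0 calls in every late response against own 0 h arrays, with medians from -0.23 in S2KO to 0.14 in U0126. In each line 0 to 2 had an unadjusted p under 0.05, where 5.47% (S3WT) to 10.8% (S3KO) of all probes did. Between 1 and 4 h in S2KO, 1 of 24 was called, where 0.753% of all probes were. It was Oas2 probe 3547 (an antiviral oligoadenylate synthetase), which fell by 2.72 ± 0.68 (limma, adjusted p = 0.0422). The list median was -0.74 where all probes stood at 0.02, and 5 of 24 were above 0. On the other lines the list median of this change lay between 0.04 and 0.23.

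Of the S2KO 4 h arrays, 10 of 23 list probes were under -1 on replicate 1, 2 of 23 on replicate 2 and 9 of 22 on replicate 3, where 10.6%, 6.79% and 11.3% of all probes were. Other arrays came near these numbers, with 8 of 23 on the U0126 1 h replicate 1 (10.1% of all probes) and 7 of 20 on the U0126 0.3 h replicate 1 (8.83%). The S3WT 0 h replicate 3, which had no TGF-β in either channel, had 7 of 23 (6.70%). Oas2 probe 3547 read 0.24, -0.01 and 0.03 at 1 h and -4.42 and -0.85 at 4 h, with replicate 3 blank, and its second probe -3.90, -0.44 and -0.30 at 4 h. Tap1, a peptide transporter of MHC class I loading, read 0.63, 0.10 and 0.27 at 1 h and -1.03, -0.31 and -0.72 at 4 h on probe 1064 (-1.02 ± 0.33, adjusted p = 0.16). Ube2l6, the ISG15-conjugating enzyme, read 0.29, 0.24 and 0.07 at 1 h and -1.22, 0.18 and -0.61 at 4 h (-0.75 ± 0.25, adjusted p = 0.19). Of the interferon-inducible member probes, 0 of 10, 0 of 8 and 0 of 9 were under -1 on the S2KO 4 h replicates 1, 2 and 3. With so few probes, these counts do not tell members apart from the shares of all probes given above.

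Among interleukins and their receptors, Il1r1, the signalling receptor of interleukin-1, fell in S2KO against the pooled background. Its S2KO arrays read -1.27, -0.43 and -0.12 at 0 h, -0.37, -0.60 and 0.21 at 1 h, -1.22, -1.76 and -0.96 at 2 h, and -1.31, -0.38 and -0.96 at 4 h. The 2 h arrays and the 4 h replicates 1 and 3 were low, but so was 1 array at 0 h, and the 4 h replicate 2 lay among the other 0 h and 1 h arrays. The pooled late response was -0.65 ± 0.18 (limma, adjusted p = 0.0288), and against own 0 h arrays it was -0.21 ± 0.28 (adjusted p = 0.954). With S3KO removed from the pooled background it was -0.51 (adjusted p = 0.189), and the call held in 17 of 24 fits with an array left out (-0.74 without the S2KO 4 h replicate 2 to -0.57 without the S3KO 0 h replicate 1, which read 1.23).

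Il17rc, Il4ra, Il15ra and Il7r, the other receptor chains measured, were not called in any comparison. The 7 interleukins (Il4, Il12b, Il16, Il17b, Il25, Il33 and Il1f6) were not called either. Il33, an alarmin of stromal and epithelial nuclei, reached 2.14 on a single S2KO 1 h array and 1.43 on a single 4 h array, with the other 4 arrays of those groups between -0.28 and 0.40. Il16 stood at 0.02 ± 0.16 over all lines and Il4 at 0.33 ± 0.37.

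Among chemokines, Ccl6, a myeloid CC chemokine, rose in S2KO against the pooled background. It read -0.64 and -1.54 at 0 h (1 array blank), 1.01, 0.46 and 0.94 at 1 h, 1.62, 0.41 and 1.42 at 2 h, and 0.56 and -0.08 at 4 h. All measured late arrays lay above the own 0 h arrays. The response was 1.69 ± 0.47 (limma, adjusted p = 0.0413), and 1.82 ± 0.82 against own 0 h arrays (adjusted p = 0.522). It was lost in 11 of 18 fits with an array left out (1.58 to 1.81) and without the S3KO 0 h arrays (1.55, adjusted p = 0.104). The probe had an SD of 1.04 and was measured on 64 arrays.

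Cxcl12, the stromal ligand of Cxcr4, was on 2 probes with a correlation of 0.18 over 53 arrays. Probe 8869 stood at -0.10 ± 0.27 over all lines and held the lowest value of any member, -7.02, on the S3WT 1 h replicate 2. In S2KO it read -0.80, -0.59 and -0.54 at 0 h and 0.79, -0.78 and 0.85 at 4 h, with replicate 2 apart from the others. Its receptor Cxcr4 was at -0.04 ± 0.21, and Ccl4 and Ccl27a at -0.24 ± 0.19 and -0.08 ± 0.15. None of these was called.

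CD antigens were the largest role, with 37 probes. Cd44, the hyaluronan receptor, changed between 1 and 4 h in S2KO. Its arrays read -0.78, -0.50 and -0.62 at 1 h, -0.15, 0.22 and 0.31 at 2 h, and 0.95, -0.14 and 1.09 at 4 h, after -0.48, -0.38 and -0.26 at 0 h. All 4 h arrays lay above all 1 h arrays, with replicate 2 apart from the others. The change from 1 to 4 h was 1.26 ± 0.27 (limma, adjusted p = 0.0146). In this comparison 2 of 102 members were called, against 0.753% of all probes, Cd44 and Tlr7, and 7 passed unadjusted against 9.25%. The call of Cd44 was lost without the 1 h replicate 1, the 4 h replicate 1 or the 4 h replicate 3 (1.04 to 1.65 over 6 fits).

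The 250 bases before the start of Cd44 (RefSeq, GRCm38.p6, chr2:102901666-102901915, minus strand) hold none of the 4 motifs and are shown for comparison with those of Tnfrsf1b and Irf2bpl.
Cd44: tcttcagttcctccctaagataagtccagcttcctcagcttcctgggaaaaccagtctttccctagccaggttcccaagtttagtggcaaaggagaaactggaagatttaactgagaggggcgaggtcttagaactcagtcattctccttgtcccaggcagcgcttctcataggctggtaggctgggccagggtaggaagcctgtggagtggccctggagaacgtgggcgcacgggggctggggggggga
The 250 bases before Ifitm3, called lower in S3WT, were also searched and held 1 AP-1 match and none of the other motifs. Whether a match goes with a change was not tested. The change of Cd44 from 1 to 4 h was -0.19 ± 0.27 in S2WT, 0.25 ± 0.27 in S3WT, 0.08 ± 0.30 in S3KO and -0.07 ± 0.27 in U0126, none called. The U0126 arrays at 4 h were close together at -0.52, -0.52 and -0.58. The change from 1 to 4 h called 0 members in those lines, where 0.0231%, 0.0576%, 0.19% and 0.139% of all probes were called, with 3, 5, 5 and 5 members at an unadjusted p under 0.05 (6.54%, 4.51%, 5.56% and 7.19% of all probes).

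Tlr7, the endosomal receptor for single-stranded RNA, moved on the same arrays as Cd44. It read -0.83, -0.51 and -0.86 at 1 h, -1.35, -0.40 and -0.25 at 2 h, and 5.02, -0.18 and 3.67 at 4 h in S2KO. Replicates 1 and 3 at 4 h carried values far above any other array, and replicate 2 did not. The change was 3.58 ± 0.69 (limma, adjusted p = 0.00531), 2.49 without the 4 h replicate 1 and 5.08 without the 4 h replicate 2, and it was not called without the 4 h replicate 1 or the 4 h replicate 3. The spread of ratios (median absolute deviation) on these arrays was 0.63 on replicates 1 and 3 and 0.52 on replicate 2. The part of this difference in the results of Cd44, Tlr7 and the interferon-stimulated list was not tested. With arrays scaled to a common spread, Cd44 (1.01) and Tlr7 (2.70) were no longer called.

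**Figure D4:**
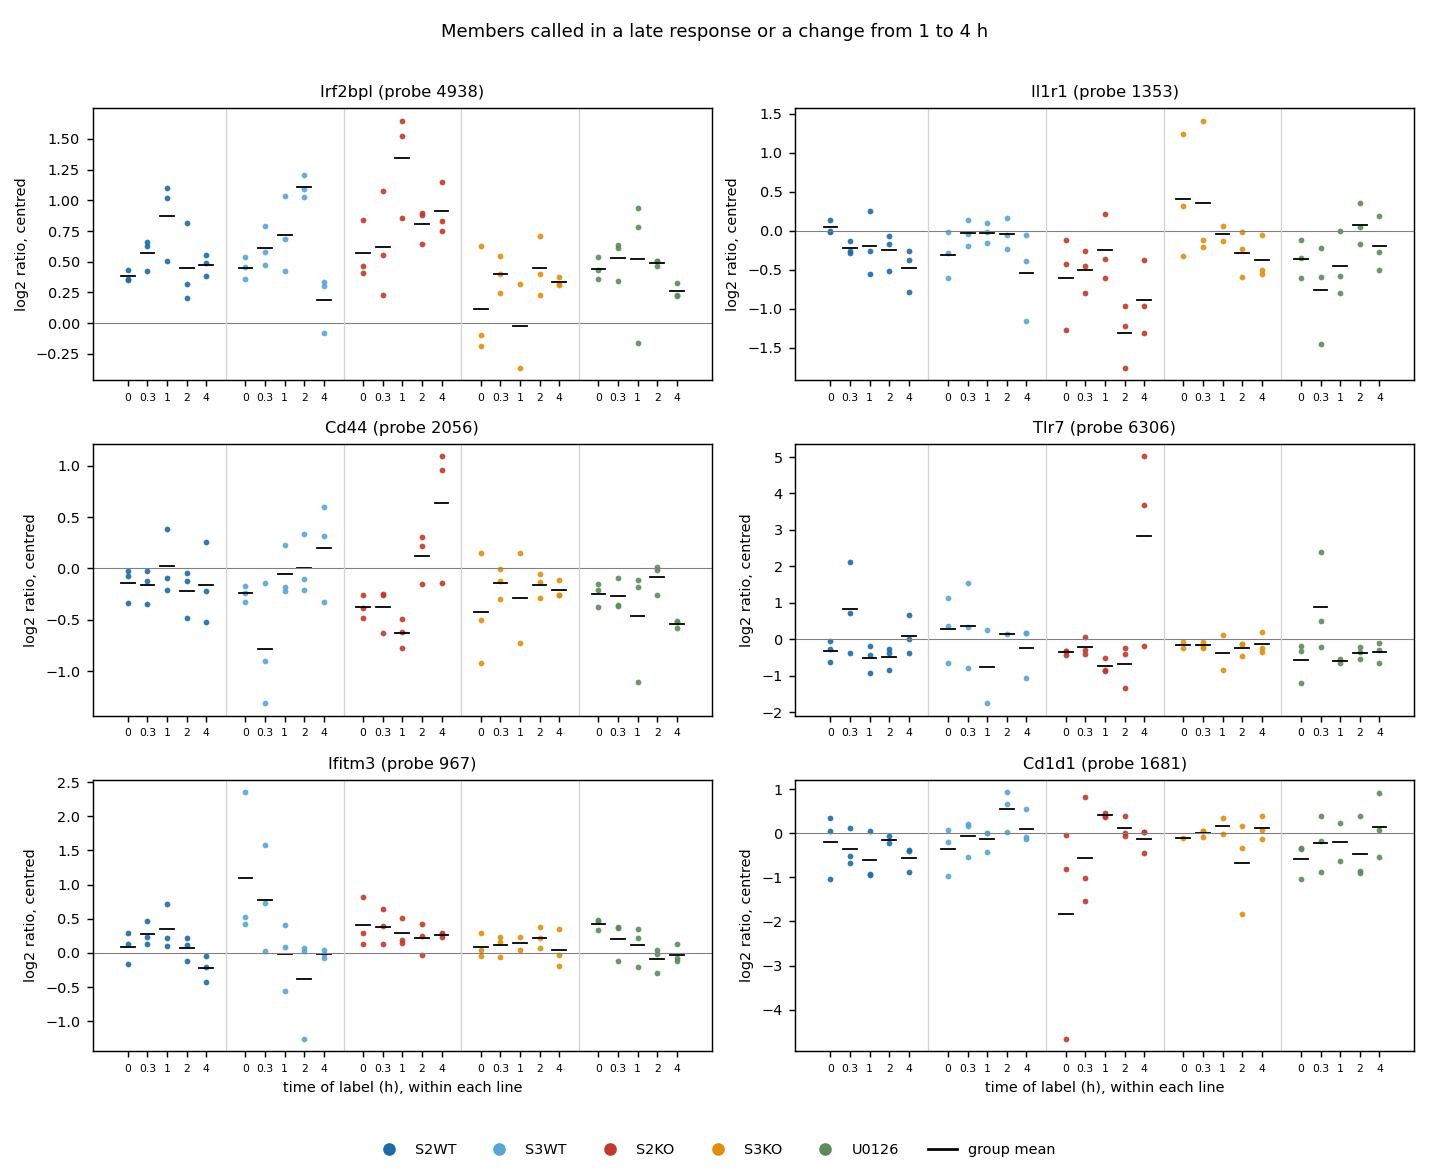
Centred log2 ratio on every array (points) with group means (bars) for 6 called members, by line and by time of label in h; y axes differ between panels. Irf2bpl is highest in S2KO at 1 h (mean 1.34), Ifitm3 in S3WT at 0 h (mean 1.10), and Tlr7 in S2KO at 4 h stands at 5.02, -0.18 and 3.67.

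Cd1d1, which presents lipids to natural killer T cells, rose in S2KO against own 0 h arrays. These read -4.66, -0.81 and -0.05, and the late arrays from -0.44 to 0.45. The late response was 1.97 ± 0.50 (limma, adjusted p = 0.0473), 0.56 without the 0 h replicate 1, and the late arrays themselves averaged 0.13. The call held in 4 of 12 fits with an array left out and was lost with replicate number as a block. The 0 h replicate 1 has no TGF-β in either channel. Cd99l2 probe 6164, a widely expressed relative of CD99, read 0.02, 0.03 and 0.41 at 0 h in S3KO and from -1.46 to -0.00 on the late arrays, and was not called.

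Cd53, a leukocyte tetraspanin, was called lower at 0.3 h in U0126 and in S3KO on probe 5794. At 0.3 h, 1 of 102 members was called in U0126 (0.0355% of all probes) and 1 of 99 in S3KO (0.845%), 1 of 105 in S2KO (Ifnlr1, 0.0235%), 0 of 106 in S2WT (0%) and 0 of 105 in S3WT (0.152%). S2WT and S3WT had 5 and 9 members at an unadjusted p under 0.05 (6.15% and 4.68% of all probes), and S2KO, S3KO and U0126 had 6, 7 and 7 (6.25%, 10.2% and 4.3%). U0126 read 0.98, 0.10 and -0.05 at 0 h and -2.83, -1.81 and -3.21 at 0.3 h, without overlap, a response of -2.96 ± 0.59 (limma, adjusted p = 0.0357) that held in 2 of 6 fits with an array left out and was lost with arrays scaled to a common spread (-2.57, adjusted p = 0.285) or without centring (-2.84, adjusted p = 0.0512). The probe that correlated with it, 3302, read 0.25 and -2.87 on the arrays where it was measured at 0.3 h.

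In S3KO, where the labels name no TGF-β at 0.3 h, Cd53 probe 5794 read -0.18 and 1.19 at 0 h and -0.59 and -4.37 at 0.3 h. The response was -2.99 ± 0.73 (limma, adjusted p = 0.0428) from 2 arrays a group. The call was lost without centring (adjusted p = 0.0591) and with replicate number as a block. Of the other CD antigens, Cd14, the lipopolysaccharide co-receptor, was at -0.82 ± 0.30 over all lines (adjusted p = 0.287) on a probe with an SD of 0.92, and Cd248 probe 8443, a fibroblast and pericyte glycoprotein, at -0.42 ± 0.17 (adjusted p = 0.348). The second Cd248 probe correlated with it at 0.26 over 74 arrays. The tetraspanin Cd9 was at -0.13 ± 0.12, and Cd34 was too sparse for an all-line test, with 65 arrays.

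The STAT factors on the array were Stat2, Stat3, Stat4, Stat5a and Stat6, and none was called in any comparison. Stat3, the main transducer of interleukin-6 family signals, stood at 0.11 ± 0.15 over all lines and Stat6, that of interleukin-4, at -0.26 ± 0.21. Stat6 was below its 0 h mean on 8 of 8 late S2WT arrays and above it on 8 of 8 late S3KO arrays, where its 0 h arrays were -2.36 and 0.08. Stat2 read -1.05, 0.04 and -4.77 on the S2KO 4 h arrays, low on replicates 1 and 3 and near 0 on replicate 2. Of the JAK-STAT genes outside the name families (14 of 27 listed genes, 16 probes), Socs2, a feedback inhibitor, rose in S2KO against pooled 0 h arrays (0.87 ± 0.22, limma, adjusted p = 0.0189). In that comparison 2.49% of all probes were called.

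The oncostatin M receptor gene Osmr changed from -0.32, -1.89 and -0.23 at 1 h to 0.68, 0.42 and 0.49 at 4 h in S2KO (1.34 ± 0.34, limma, adjusted p = 0.0422), and was not called in any other comparison. From 1 to 4 h in S2KO, 0.753% of all probes were called. Of the NF-kB genes listed, 9 of 31 were measured on 11 probes, and 0 were called in any comparison. Over all lines 3 had an unadjusted p under 0.05, where 10.5% of all probes did.

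The MHC probes were all of class II or its peptide-loading helpers (H2-Aa, H2-Ab1, H2-Eb1, H2-Eb2, H2-DMa, H2-Oa and H2-Ob), and 0 were called in any comparison. H2-Ab1, the β chain of I-A, had an SD of 0.36 and stood at -0.09 ± 0.11 over all lines. Csf2rb, the shared β receptor chain of granulocyte-macrophage colony-stimulating factor, interleukin-3 and interleukin-5, was the sole member of its role, at -0.06 ± 0.24, with a single array at 5.41 (S2KO 2 h replicate 1).

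**Figure D5:**
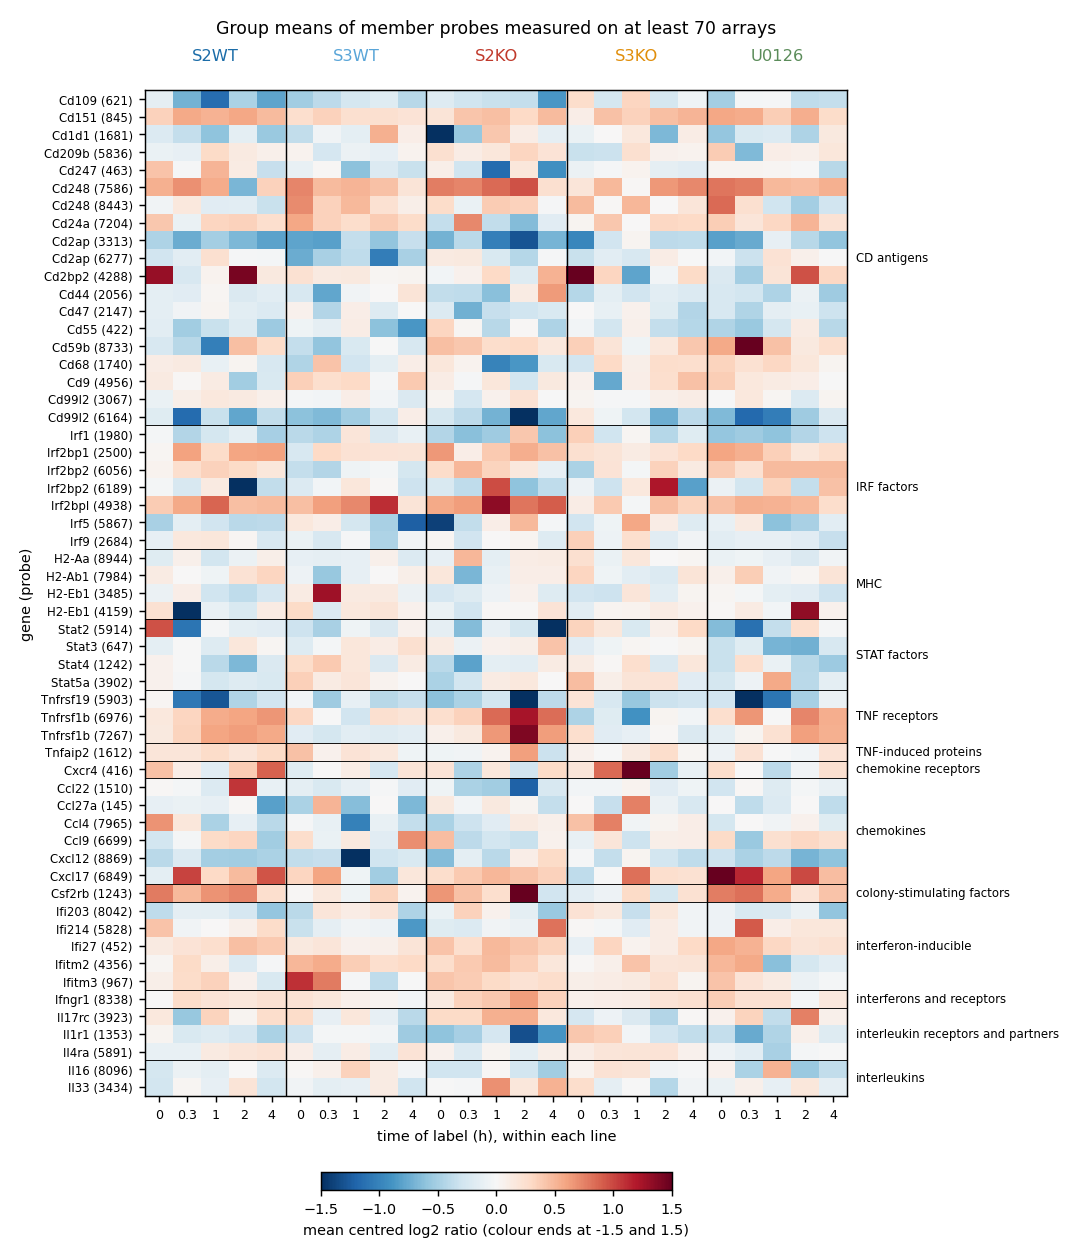
Group means of the centred log2 ratio (colour, ending at -1.5 and 1.5) for member probes measured on at least 70 of 74 arrays, in rows by role, with the 5 lines and 5 times in columns. Tnfrsf1b is positive at every time in S2WT and S2KO on both probes, 0 h included. Irf2bpl is positive in 24 of 25 groups, again with 0 h included.

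Differences between lines in the late response called no member: 0 of 86 for S2KO minus S2WT (0.0386% of all probes), 0 of 71 for S3KO minus S3WT (0.126%) and 0 of 98 for U0126 minus S2WT (0.0252%). At an unadjusted p under 0.05 there were 5, 4 and 7 members, 5.81%, 5.63% and 7.14% of those tested, where 7.13%, 9.05% and 6.11% of all probes passed. The smallest adjusted p were 0.425 (Cd1d1, S2KO minus S2WT, 2.20 with an interval from 0.77 to 3.62) and 0.128 (Ifitm3, S3KO minus S3WT, 1.28 with an interval from 0.54 to 2.01). The 0 h arrays of both include the single outlying array given above. Markers of leukocytes (6 of 9 listed genes measured), fibroblasts (3 of 6) and endothelium (1 of 3) gave 0 calls in any comparison.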

How the data were processed

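The authors deposited log2 ratios of the 2 channels of each array, signed, per the file headers. No source used here gives the dyes, background correction, normalization or direction. Ratios above 16.6, a shared ceiling in 1344 cells, were set to missing (22 in members), and 41670 cells were blank. Each array was centred on its median (-0.60 to 0.22 as deposited). Group means over all 74 arrays were fitted by least squares for each probe in R 4.3.3, with variances moderated by limma 3.58.1 (squeezeVar) and Benjamini-Hochberg adjustment over all probes tested in a comparison, with at least 2 arrays in each group used. There were 24 comparisons. The fit was tested on simulated data.

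The members and gene lists were chosen with earlier results of these data known. Named were probes called in any comparison, in each role the 2 probes with the smallest all-line p, and a set of 27 symbols (9 measured). Features named beside these were chosen after their values were seen. Gene symbols are those of the platform, and all 117 matched the RefSeq gene table. Alternatives were no centring, scaling to a common spread, probes measured on every array, a replicate block, fits on the groups compared, treated arrays alone, a pool or fit without S3KO, and leaving out each array. Turning the sign of S3KO 1 h replicate 2 was added after seeing the data.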

Additional observations from a re-analysis of the deposited data

Results flagged for a closer look

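On 5 member probes with a tested difference between lines, every measured late array of a line lay above its own 0 h mean and every measured late array of the line it was compared with below it. The share of all probes with this pattern is not given here, so the count is not a result about members as a set. Each 0 h mean rests on at most 3 arrays, and 1 odd array can move it. H2-Eb1 probe 4159, an MHC class II chain, was above on 8 of 8 S3KO arrays and below on 9 of 9 S3WT arrays. Its late responses differed by 0.39 (S3KO minus S3WT, 95% interval from -1.19 to 1.98, limma, adjusted p = 0.958). The other H2-Eb1 probes did not have the full pattern. Probe 3485 was above on 7 of 8 S3KO and 2 of 9 S3WT arrays, and probe 6543 on 6 of 7 and 3 of 6. Ifi214 probe 5828, an interferon-inducible gene of the Ifi200 family, was above on 9 of 9 U0126 arrays and below on 9 of 9 S2WT arrays, where the 0 h replicate 1 read 1.33, and the late responses differed by 0.53 (U0126 minus S2WT, interval from -0.58 to 1.63; adjusted p = 0.973). Irf2bp1, a corepressor of IRF2, was above on 9 of 9 S2WT arrays and below on 8 of 8 U0126 arrays, a difference of -0.78 (interval from -1.35 to -0.22; adjusted p = 0.737). Ccr2, the receptor of monocyte-attracting chemokines, had the same pattern in these lines, with a difference of -2.32 (interval from -4.40 to -0.24; adjusted p = 0.786). Ccl4, a CC chemokine, was above on 9 of 9 S2KO arrays and below on 8 of 8 S2WT arrays, a difference of 1.501 (S2KO minus S2WT, interval from 0.29 to 2.71; adjusted p = 0.586). None of these differences passed its test after adjustment. Il25 was above on 5 of 5 U0126 arrays and below on 8 of 8 S2WT arrays, and its difference was not tested, because a group had fewer than 2 values.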

How the results depend on the processing

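No named value changed sign under any alternative. Tnfrsf1b (0.69 to 0.92) and Irf2bpl (0.45 to 0.63) in S2KO against pooled 0 h arrays stayed called under each setting run for them. Except for treated arrays alone, the share of all probes called under an alternative is not given here. The counts below thus show only how calls moved, and are not results about members as a set. Counts of called members that moved were these. Without centring: S2KO own 0, S3KO 0.3 h 0, U0126 0.3 h 0 and S2WT pooled 4, all lower, where the median of all probes shifted to -0.17 and Tnfrsf1b (0.39) was lost. With a common spread: 0 in S2KO own, S2WT pooled, S2KO 0.3 h, U0126 0.3 h and S2KO 1 to 4 h, and 2 in S2KO pooled. With probes measured on every array, where fewer members could be tested: 1 in S2KO own and S2KO 1 to 4 h, and 0 at 0.3 h in S2KO, S3KO and U0126. With the arrays of the groups compared alone, hence fewer arrays: 0 in S3WT own, S2KO own, S2WT pooled, S2KO 1 to 4 h and at 0.3 h in S2KO, S3KO and U0126, and 2 in S2KO pooled. Treated arrays tested against 0 called 14 of 110 members in S2WT (23.1% of all probes), 4 of 103 in S3WT (8.62%), 17 of 95 in S2KO (26.6%), 2 of 90 in S3KO (1.82%) and 11 of 106 in U0126 (14.3%), which counts the background ratio as response. The all-line count was 1 without S3KO. Turning the sign of S3KO 1 h replicate 2 moved no count. Where a setting's construction does not show it, the cause was not tested.

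Same-numbered arrays correlated above 0.1 in 69 of 146 pairs (-0.22 to 0.45), with 20 of 30 in S2KO and 17 of 26 in S3KO. As this did not hold in every pair of any line, the main fit did not pair samples by number. These correlations do not settle whether the numbers pair the samples. With a replicate block, S2KO own and S3KO 0.3 h had 0 called members (Tnfrsf1b adjusted p = 0.0510, Cd1d1 0.0658, Cd53 0.107), and the other counts did not move.

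Leaving out each array gave counts from 0 to 2 in S2KO own, S3KO own, U0126 pooled and S3KO 0.3 h, 1 to 2 in S2WT pooled, 2 to 8 in S2KO pooled, 0 to 3 in S2KO 1 to 4 h, and 0 to 1 in S3WT own, in all lines together, at 0.3 h in S2WT, S3WT, S2KO and U0126, from 1 to 4 h in S2WT, S3WT and S3KO, and in S3KO minus S3WT. It gave 0 throughout elsewhere. The shares of all probes called in these fits are not given either. The S2KO pooled count was lowest without S2KO 0 h replicate 3 and highest without S2KO 4 h replicate 2. The number of arrays limits precision, and signal over background is unknown.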
